A study of Mus musculus with 24 samples.

Results

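The data are microRNA (miRNA) read counts from the cerebral cortex of wild-type (WT) mice at 6 months of age, set against WT mice at 3 months, with 3 libraries in each age group. These 6 libraries were chosen by their labels out of 24, and all 1927 miRNA names of the count table were taken. Of these names, 802 had no read in any of the 24 libraries, and 433 had enough reads to be tested. The mice were C57BL/6 without a transgene, with no treatment named in the labels, and each group held 2 female and 1 male mouse, with no sex given for single libraries. The tissue label reads brain and the series title names the cerebral cortex, so the region is as the title gives it. WT groups served in the study as the age-matched controls of APP/PS1 mice, a transgenic model that carries mutant amyloid precursor protein and presenilin transgenes, whose promoters the labels do not name. APP/PS1 cortex of 6 and 3 months is used below as a parallel comparison in different mice. The other libraries are WT and APP/PS1 cortex of 1 and 9 months. The test was fitted on all 24 libraries, and levels at 1 and 9 months are given for some names. The comparison asks which cortical miRNAs differ between these ages in mice that carry no transgene.

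MiRNAs are short RNAs that are cut from hairpin precursors and guide Argonaute proteins to messenger RNAs. Targets are found mainly through the seed, bases 2 to 8 of the mature strand, so miRNAs that share a seed share many candidate targets. Each hairpin can give a strand from its 5′ side (5p) and a strand from its 3′ side (3p). The imprinted Dlk1-Dio3 domain on mouse chromosome 12 holds a large cluster of miRNA hairpins. Its noncoding RNAs are expressed from the maternal chromosome, and many of its miRNAs are abundant in neurons.

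The mature sequences of the miRNAs that differed are given 5′ to 3′ with the seed in capitals, because the names are described below by sequence and by locus. They are from RefSeq (GRCm38.p6), which held 19 of the 24 names that passed the test. The higher names with a sequence were these.
miR-690: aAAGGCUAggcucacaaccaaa
miR-3470b: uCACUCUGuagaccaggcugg
miR-1195: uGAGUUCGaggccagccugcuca
miR-3471: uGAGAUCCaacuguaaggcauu
miR-6481: cACUGAAAaugcuuagaug
miR-203-3p: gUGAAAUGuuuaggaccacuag
miR-142a-5p: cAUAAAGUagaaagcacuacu
miR-135a-1-3p: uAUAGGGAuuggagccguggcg
The lower names of the Dlk1-Dio3 locus were these.
miR-409-5p: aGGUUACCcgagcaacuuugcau
miR-412-5p: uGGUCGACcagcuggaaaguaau
miR-3072-3p: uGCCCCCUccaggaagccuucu
miR-1193-3p: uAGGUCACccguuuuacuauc
miR-337-5p: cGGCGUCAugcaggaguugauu
miR-494-3p: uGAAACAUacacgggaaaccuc
miR-541-3p: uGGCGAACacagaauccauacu
miR-323-5p: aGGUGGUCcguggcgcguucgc
The lower names from other loci are shown with the tested miRNAs that share their seed.
miR-100-5p: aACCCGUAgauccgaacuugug
miR-99a-5p: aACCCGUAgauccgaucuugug
miR-99b-5p: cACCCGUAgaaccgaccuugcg
miR-15b-5p: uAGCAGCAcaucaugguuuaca
miR-16-5p: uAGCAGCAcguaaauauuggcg
miR-195a-5p: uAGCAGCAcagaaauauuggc
miR-497a-5p: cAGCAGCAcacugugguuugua
miR-1969: aAGAUGGAgacuuuaacaugggu
No 2 of the 19 printed passing names share a seed. The seed of miR-100-5p is shared with miR-99a-5p and miR-99b-5p, and that of miR-15b-5p with miR-16-5p, miR-195a-5p and miR-497a-5p. MiR-1193-3p shares its seed with miR-370-5p of the same locus.

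Library totals were 2230030, 3222020 and 4266691 counts at 6 months, against 3644883, 5721158 and 4541243 at 3 months. The 6-month libraries were on the whole the shallower ones. Levels are given as CPM, the reads of a name relative to the library's total after edgeR's TMM scaling, and a passing miRNA is one with a Benjamini-Hochberg adjusted p under 0.05 over all 433 names in edgeR's quasi-likelihood test. In all, 24 names passed (5.54%). Of these, 12 were higher at 6 months (2.77%) and 12 were lower (2.77%), and the median log2 fold change over all 433 names was 0.03. All 24 had 3 libraries at 6 months that did not overlap the 3 libraries at 3 months, which held for 69 of the 433 names (15.9%). A further 35 names had an unadjusted p under 0.05 without passing. DESeq2 called 25 names, 12 higher and 13 lower. With only the WT 6-month and 3-month groups in the fit, edgeR called 13 names, and with no composition factor in the scaling it called 18, 11 higher and 7 lower. Each library is a different mouse and the labels give no batch, so a part of library preparation in these differences was not tested.

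**Figure D1:**
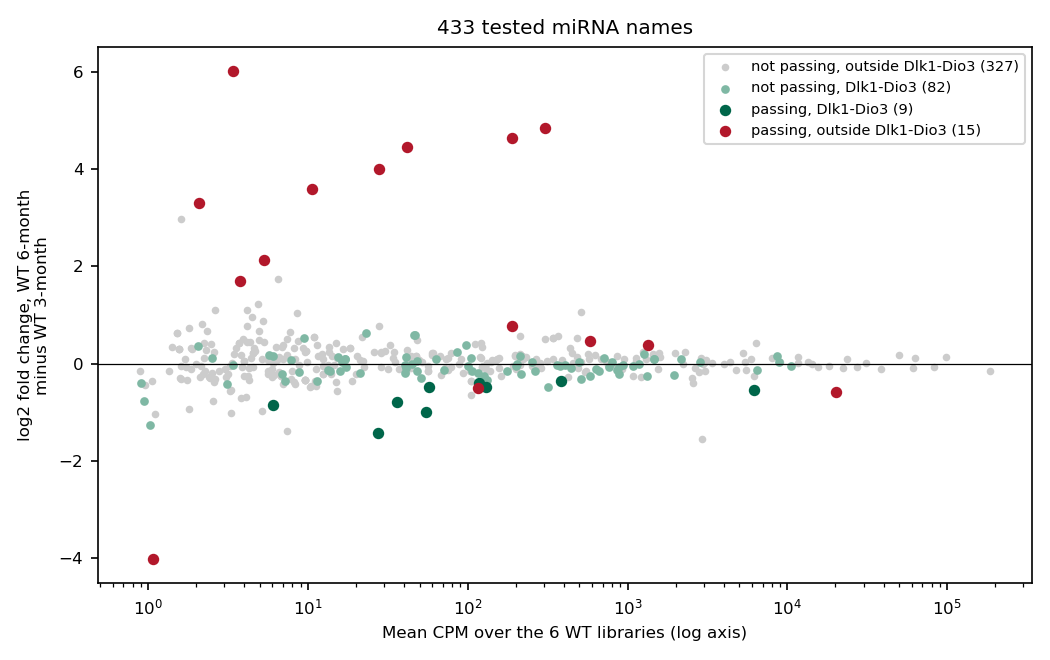
Change at 6 against 3 months in WT cortex (vertical axis, log2 fold change, WT 6-month minus WT 3-month) against mean level (horizontal axis, CPM over the 6 libraries, log axis) for the 433 tested names. Of the 24 passing names, 9 lie in the Dlk1-Dio3 locus and are all below 0, while the largest changes upward are of names with low or moderate levels at 3 months.

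The cortex libraries carried the miRNAs that mark neural tissue, and none of the most abundant names passed the test. MiR-124-3p, the classical neuronal miRNA, was the most abundant name and read 163868, 191621 and 167111 CPM at 6 months, against 188574, 209820.0 and 183503 CPM at 3 months. The groups overlapped, with a log2 fold change of -0.16 (SE 0.10, edgeR adjusted p = 0.589). The next names by level were miR-26a-5p, miR-99a-5p, miR-9-5p and miR-125b-5p, with log2 fold changes of 0.14, -0.06, 0.10 and -0.09, none of which passed. Of the 16 tested neuron-enriched names 0 passed, with a median log2 fold change of 0.07, a lowest value of -0.16 and a highest of 0.32. The oligodendrocyte marker miR-219a-5p had 0 counts in all 6 libraries, and miR-338-3p, the only one of the 7 oligodendrocyte names with enough reads to test, averaged 6.12 ± 1.13 CPM at 6 months and 3.76 ± 0.993 CPM at 3 months (SD, n = 3 each). Its difference did not pass (edgeR adjusted p = 0.274). Names of other lists, among them miR-21a-5p, miR-25-3p and miR-93-5p, also had too few reads to be tested. Whether the authors' filtering or counting left out reads of such names was not tested. The 0 of miR-219a-5p is thus given as a value of the deposited counts only. In such bulk tissue, fewer cells of a type and less RNA per cell cannot be told apart.

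Most of the large differences were rises from low levels. At 6 months, 8 passing names exceeded a log2 fold change of 2. MiR-690 read 678, 638 and 442 CPM in the WT 6-month libraries, against 19.9, 18.8 and 22.2 CPM in the WT 3-month libraries. The 6-month libraries were all far above the 3-month libraries, which lay close together. The log2 fold change was 4.85 (SE 0.46, edgeR adjusted p = 1.24e-07). Mir690 lies at chr16:28599935-28600043 (GRCm38, minus strand), within an intron of Fgf12, an intracellular fibroblast growth factor homologue that modulates sodium channels, on the same strand.

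Predicted miRNA 7, a name the authors added by hairpin prediction, followed miR-690. It had 406, 409 and 276 CPM at 6 months, against 13.8, 13.1 and 16.8 CPM at 3 months. The order of the libraries was nearly that of miR-690, and the groups were again well apart, with a log2 fold change of 4.64 (SE 0.44, edgeR adjusted p = 1.24e-07). Divided by the counts of miR-690, its counts gave ratios from 0.598 to 0.755 in the 6 libraries and from 0.583 to 0.876 over all 24. Whether both names count reads of 1 source was not tested.

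MiR-3470a and miR-3470b, close relatives by name, were both higher. MiR-3470a read 86.3, 56.3 and 98.1 CPM in the WT 6-month libraries, against 3.59, 3.13 and 4.14 CPM in the WT 3-month libraries. MiR-3470b read 51.9, 43.2 and 63.5 CPM in the WT 6-month libraries, against 2.76, 4.06 and 2.83 CPM in the WT 3-month libraries. The lowest 6-month library was far above the highest 3-month library for both names. The log2 fold changes were 4.47 (SE 0.38, edgeR adjusted p = 5.69e-08) for miR-3470a and 4.01 (SE 0.45, edgeR adjusted p = 1.48e-06) for miR-3470b. Mir3470a was intergenic on chromosome 6, and Mir3470b lay on chromosome 16 in an intron of Gramd1c on the opposite strand.

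The other names of this size were at a few CPM or less at 3 months. MiR-1957a read 21.3, 11.9 and 25.96 CPM in the WT 6-month libraries, against 1.66, 1.48 and 1.74 CPM in the WT 3-month libraries. Its hairpin lies on chromosome 4 within an intron of Slc2a1, which encodes the glucose transporter GLUT1, and its log2 fold change was 3.59 (SE 0.46, edgeR adjusted p = 1.18e-05). MiR-1195 read 7.42, 9.07 and 9.54 CPM in the WT 6-month libraries, against 1.66, 1.66 and 2.62 CPM in the WT 3-month libraries. The 6-month libraries lay well above the 3-month libraries (log2 fold change 2.13, SE 0.37, edgeR adjusted p = 5.43e-04). MiR-3471 read 3.71, 2.81 and 4.88 CPM in the WT 6-month libraries, against 0.552, 0.369 and 0.218 CPM in the WT 3-month libraries. No 3-month library reached 1 CPM, and every 6-month library was above 2 (log2 fold change 3.30, SE 0.65, edgeR adjusted p = 0.00177). MiR-3471 rested on 39 counts at 6 months and 5 counts at 3 months. MiR-6481 rested on 59 counts at 6 months and 1 count at 3 months, a ratio of 81.6 per library size with an exact 95% interval from 14.1 to 3276 that covers counting error only. Its level spread from 1.78 to 10.6 CPM among the 6-month libraries, and 2 of the 3 libraries at 3 months had 0 counts (edgeR adjusted p = 0.00845, and 0.0391 without the second WT 3-month library, which held the 1 count).

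Together the 8 names summed to 1262, 1181 and 923 CPM in the 6-month libraries, against 43.9, 42.8 and 50.6 CPM in the 3-month libraries. MiR-690 and predicted miRNA 7 carried most of this sum, between 77.9% and 88.7% in the 6-month libraries and between 74.6% and 77.2% in the 3-month libraries. The other 6 names summed to 179, 134 and 204 CPM in the 6-month libraries, against 10.2, 10.9 and 11.5 CPM in the 3-month libraries. The 8 names made up 0.0975% to 0.122% of the counts at 6 months and 0.00406% to 0.00511% at 3 months. The rise was thus a small part of each library. Over the WT ages, the sums were 58.4, 60.5 and 41.6 CPM at 1 month, the values above at 3 and 6 months, and 66.1, 61.1 and 33.9 CPM at 9 months. The 6-month WT libraries stood above every other WT library. The 8 names were chosen by their rise in these libraries over the 3-month WT libraries, so that gap was fixed by the choice. The same 6-month libraries are set against 1 and 9 months, and those differences were not tested. In APP/PS1 cortex the sums were 93.7, 57.9 and 55.1 CPM at 1 month, 60.1, 44.6 and 27.8 CPM at 3 months, 361, 566 and 723 CPM at 6 months, and 350.2, 138 and 183 CPM at 9 months.

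**Figure D2:**
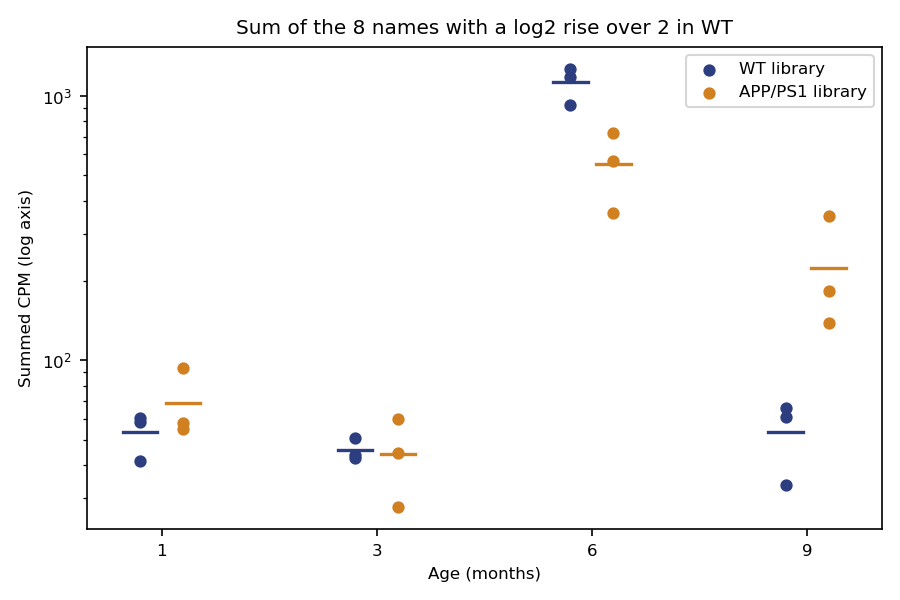
Summed CPM (vertical axis, log axis) of the 8 passing names with a WT log2 fold change above 2, per library (points) with the group mean (lines), at 1, 3, 6 and 9 months (horizontal axis). The WT libraries at 6 months lie between 923 and 1262 CPM, and the WT libraries of the other ages between 33.9 and 66.1 CPM. The names were chosen by their rise from 3 to 6 months in WT, so that gap was fixed by the choice.

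Several of these names have sequences that recur in the transcriptome. The mature sequence was searched letter for letter, on both strands, in GENCODE M21 transcripts of 55341 genes. Matches to genes whose names begin with Mir, which covers miRNA genes and some of their host transcripts, were not counted. MiR-3470b matched transcripts of 590 genes on the same strand and 504 on the opposite strand, miR-3471 matched 84 and 27, and miR-690 matched 18 and 1. Among the 358 tested names with a sequence, only 4 matched transcripts of over 10 genes on the same strand (1.12%). Besides these 3, the other was miR-3473a, which matched 147 and 135 genes and missed the threshold (1.39, 3.44 and 3.77 CPM at 6 months, against 0.276, 0.738 and 0 CPM at 3 months, log2 fold change 2.97, edgeR adjusted p = 0.0509, and 0.0413 without the first WT 6-month library). In the other fits of miR-3473a without 1 library, the edgeR adjusted p lay between 0.0555 and 0.207. MiR-1195 matched 0 genes on either strand, and miR-6481 matched 1 on the same strand. Copies with a changed base are not found by such a search, so 0 matches do not show that a sequence has no near copies. None of the 11 lower names with a sequence matched a counted gene on the same strand, and 1 was the most that any of them matched on the opposite strand. Mirg, a noncoding host transcript of the Dlk1-Dio3 locus, was left out by its name. The hairpins of miR-412-5p and miR-3072-3p lie in exons of Mirg on the same strand. The part of fragments of any of these transcripts in the counts was not tested.

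The remaining higher names changed less and include miRNAs with known tissue roles. MiR-203-3p read 279.6, 202 and 237 CPM in the WT 6-month libraries, against 129, 152 and 138 CPM in the WT 3-month libraries. This miRNA, known for its role in epidermal differentiation, was higher in each 6-month library than in any 3-month library, with a log2 fold change of 0.78 (SE 0.14, edgeR adjusted p = 8.28e-04). MiR-598-3p read 1708, 1509.7 and 1373 CPM in the WT 6-month libraries, against 1093, 1229 and 1186 CPM in the WT 3-month libraries. The groups were apart but close, with a log2 fold change of 0.39 (SE 0.11, edgeR adjusted p = 0.0438). It lost the call under each of the 8 other settings and without any 1 library, and its edgeR adjusted p was 0.269 without the first WT 6-month library. MiR-135a-1-3p read 7.88, 7.50 and 2.22 CPM in the WT 6-month libraries, against 1.93, 2.03 and 1.09 CPM in the WT 3-month libraries. The lowest 6-month library was just above the highest 3-month library (log2 fold change 1.71, SE 0.49, edgeR adjusted p = 0.0422). Of the 6 fits that left out a library, the call was kept in that without the third WT 6-month library, and the edgeR adjusted p was 0.186 without the second. It was also lost with the replicate number as a block (edgeR adjusted p = 0.0514). The 5p strand, miR-135a-5p, averaged 397 ± 32.3 CPM at 6 months and 378 ± 52.5 CPM at 3 months (SD, n = 3 each), a log2 fold change of 0.07 that did not pass.

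MiR-142a-5p, a miRNA of blood-derived and microglial cells, was the one member of the 8 tested microglial and immune names to pass. MiR-142a-5p read 787, 649 and 583 CPM in the WT 6-month libraries, against 475, 534 and 464 CPM in the WT 3-month libraries. The lowest 6-month library was above the highest 3-month library, and the log2 fold change was 0.45 (SE 0.13, edgeR adjusted p = 0.0366). The call was kept without the second or the third WT 6-month library and lost without any of the other 4, and without the first WT 6-month library the edgeR adjusted p was 0.249. It was also lost without a filter on low counts and with only the WT groups in the fit. The 3p strand of the same hairpin averaged 12.8 ± 2.57 CPM at 6 months and 9.91 ± 2.65 CPM at 3 months and did not pass. MiR-146a-5p, miR-155-5p and miR-223-3p, which mark inflammatory and myeloid cells, had log2 fold changes of -0.22, 0.01 and 0.24, none passing. The median of the 8 was 0.11.

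Markers of red blood cells are given beside this result. All 7 tested erythroid names had log2 fold changes above 0, with a median of 0.63, and none passed. MiR-451a read 819.9, 819.6 and 438 CPM in the WT 6-month libraries, against 285, 408 and 297 CPM in the WT 3-month libraries. All 3 of its 6-month libraries were above the 3-month libraries, with the third 6-month library nearest to them (log2 fold change 1.07, SE 0.33, edgeR adjusted p = 0.066, and 0.0318 without the third WT 6-month library). In the other fits of miR-451a without 1 library, the edgeR adjusted p lay between 0.0739 and 0.263. The summed level of the 7 names lay between 1542 and 2520 CPM at 6 months and between 1242 and 1405 CPM at 3 months. Names with identical counts were not merged in this list, so the sum may hold the same reads more than once. The part of residual blood in the difference of miR-142a-5p was not tested.

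**Figure D3:**
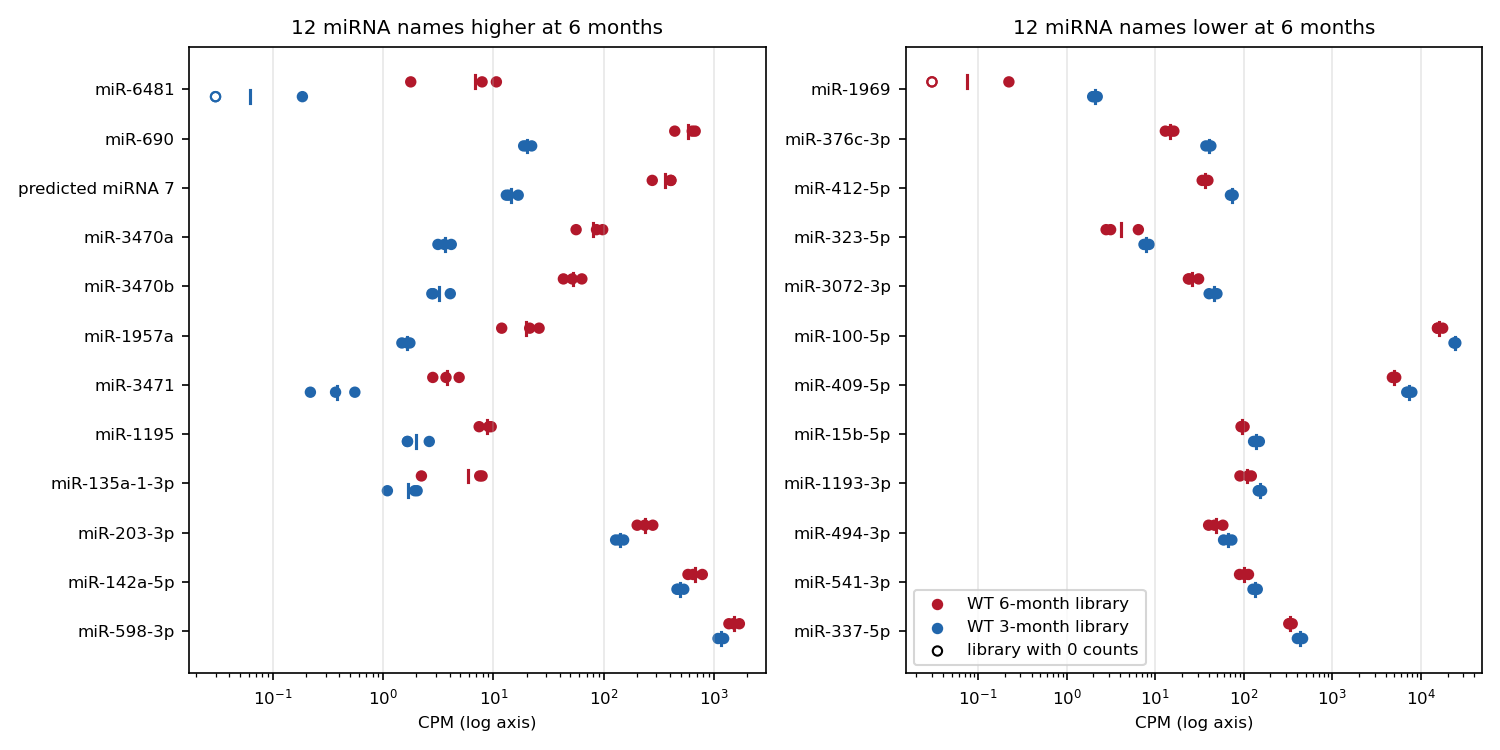
Level of the 24 passing names (horizontal axes, CPM, log axis) in each WT 6-month library (red) and WT 3-month library (blue), with higher names on the left and lower names on the right. Short lines mark group means, and open circles at the left edge stand for libraries with 0 counts. The 3 libraries of each age do not overlap for any of the 24 names.

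Among the lower names, the most abundant was miR-100-5p, a member of the miR-99/100 family known to target mTOR signalling in several cell types. MiR-100-5p read 17623, 15493 and 15367 CPM in the WT 6-month libraries, against 24803, 24333 and 23661 CPM in the WT 3-month libraries. The libraries of each age lay close together and the groups were far apart, with a log2 fold change of -0.59 (SE 0.09, edgeR adjusted p = 1.85e-04). Means over the WT ages were 21025 CPM at 1 month, 24266 at 3 months, 16161 at 6 months and 30274 at 9 months, so the 6-month level was the lowest of the 4. The name was chosen by its low 6-month level, and the differences from 1 and 9 months were not tested. Its relatives with the same seed did not pass. MiR-99a-5p averaged 81452 ± 8353 CPM at 6 months and 85108 ± 9839 CPM at 3 months (SD, n = 3 each), with a log2 fold change of -0.06 (edgeR adjusted p = 0.875), and miR-99b-5p had a log2 fold change of -0.09 (edgeR adjusted p = 0.859). Mir100 lies at chr9:41531425-41531504 (GRCm38, plus strand), in an intron of the noncoding gene 3110039I08Rik.

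MiR-15b-5p, a member of the miR-15/16 family known to restrain the cell cycle, was also lower. MiR-15b-5p read 95.1, 101 and 92.98 CPM in the WT 6-month libraries, against 129, 149.7 and 133 CPM in the WT 3-month libraries. The 6-month libraries were all below the 3-month libraries, with a log2 fold change of -0.51 (SE 0.13, edgeR adjusted p = 0.0208). The family members with the same seed had log2 fold changes of -0.12 for miR-16-5p, -0.11 for miR-195a-5p and -0.26 for miR-497a-5p, none passing. MiR-15b-5p lost the call without a filter on low counts and with only the WT groups in the fit. Mir15b lies on chromosome 3 within an intron of Smc4, a condensin subunit gene. MiR-1969 rested on 1 count at 6 months and 28 counts at 3 months. The ratio of 3 months over 6 months was 20.2 per library size, with an exact 95% interval from 3.35 to 828 for counting error only (fitted log2 fold change -4.02, edgeR adjusted p = 0.00345). The fitted value was -3.59 without the second WT 6-month library. Without the third, which held the 1 count, it was -6.26, a value against 0 counts.

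The other 9 lower names all came from the Dlk1-Dio3 locus, for which the table holds 111 names, 104 of them with a read and 91 tested. Of the 91 members, 9 passed as lower (9.89%) and 0 as higher, against 3 lower (0.877%) and 12 higher among the other 342 tested names. Below 0 were 59 of the 91 (64.8%), with a median log2 fold change of -0.08, against 145 of the other 342 (42.4%), with a median of 0.06. The groups did not overlap for 18 members that were lower and 6 that were higher, beside 15.9% of all names in either direction. The 6 include miR-299a-3p and miR-299b-3p, whose levels were nearly equal and are not independent. The summed level of the locus lay between 66483 and 69265 CPM at 6 months and between 70677 and 72181 CPM at 3 months. These ranges, taken after TMM scaling, did not overlap, and 82 of the members did not pass. The TMM factor was 1.06 for the third WT 6-month library and 0.948 for the second WT 3-month library. Whether the ranges stay apart by library size alone was not tested. The sum also holds miR-409-5p, which averaged 4984 CPM at 6 months and 7321 CPM at 3 months. The gap is thus not a measure of the locus as a whole. The count of lower members depended on the fit, with 4 when library size was used with no composition factor, 4 when only the WT groups were fitted and 5 without a filter on low counts. MiR-337-5p, miR-494-3p, miR-541-3p and miR-323-5p lost the call in all 3 of these fits, miR-1193-3p in the fit of the WT groups and the unfiltered fit and miR-3072-3p with no composition factor.

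Within the locus, the most abundant of the lower names was miR-409-5p. MiR-409-5p read 5195, 4991 and 4765 CPM in the WT 6-month libraries, against 7901, 6924 and 7136 CPM in the WT 3-month libraries. The groups did not overlap, and the log2 fold change was -0.55 (SE 0.10, edgeR adjusted p = 5.43e-04). MiR-412-5p read 33.9, 36.3 and 39.3 CPM in the WT 6-month libraries, against 73.1, 75.8 and 70.6 CPM in the WT 3-month libraries. The libraries of each age lay within a few CPM of each other, and the log2 fold change was -0.999 (SE 0.20, edgeR adjusted p = 0.00177). MiR-376c-3p read 12.99, 15.01 and 16.2 CPM in the WT 6-month libraries, against 40.6, 42.4 and 37.3 CPM in the WT 3-month libraries. This was the largest fall among the passing members of the locus, with a log2 fold change of -1.43 (SE 0.28, edgeR adjusted p = 0.00177). Its mean level in WT was 45.4 CPM at 1 month, 40.1 at 3 months, 14.7 at 6 months and 36.00 at 9 months. The name was chosen by its low 6-month level, and the differences from 1 and 9 months were not tested.

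MiR-3072-3p read 23.7, 24.4 and 30.8 CPM in the WT 6-month libraries, against 40.6, 47.02 and 49.7 CPM in the WT 3-month libraries. MiR-337-5p read 322, 331 and 352 CPM in the WT 6-month libraries, against 402, 435 and 461 CPM in the WT 3-month libraries. Both names had 6-month libraries below all 3-month libraries, with log2 fold changes of -0.79 (SE 0.20) and -0.37 (SE 0.09) and an edgeR adjusted p of 0.0208 for each. MiR-1193-3p read 122, 90.4 and 111 CPM in the WT 6-month libraries, against 148, 145 and 159 CPM in the WT 3-month libraries. MiR-541-3p read 102, 113 and 89.4 CPM in the WT 6-month libraries, against 135, 142 and 127 CPM in the WT 3-month libraries. The log2 fold change was -0.49 for miR-1193-3p (SE 0.12, edgeR adjusted p = 0.0208) and -0.41 for miR-541-3p (SE 0.11, edgeR adjusted p = 0.029), again without overlap. MiR-494-3p read 57.97, 40.03 and 46.6 CPM in the WT 6-month libraries, against 59.1, 73.2 and 67.3 CPM in the WT 3-month libraries. Here the highest 6-month library came within about 1 CPM of the lowest 3-month library, and the log2 fold change was -0.47 (SE 0.13, edgeR adjusted p = 0.0255). MiR-323-5p read 2.78, 3.13 and 6.44 CPM in the WT 6-month libraries, against 7.45, 7.74 and 8.50 CPM in the WT 3-month libraries. At these few CPM the third 6-month library stood near the 3-month libraries. The log2 fold change was -0.86 (SE 0.25, edgeR adjusted p = 0.0438), and DESeq2 did not call it (adjusted p = 0.0927). Of the 6 fits that left out a library, the call was kept in that without the third WT 6-month library (log2 fold change -1.45), with an edgeR adjusted p of 0.194 without the second. Without the second WT 6-month library miR-494-3p had an edgeR adjusted p of 0.0868, miR-1193-3p and miR-3072-3p 0.0508. Without the first, miR-3072-3p had 0.0554, and without the third, miR-494-3p and miR-541-3p had 0.0561.

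The 9 lower names came from 9 different hairpins, 4 as the 5p and 5 as the 3p strand. The 51 tested hairpins span 184.3 kb (chr12:109563692-109747960, GRCm38), all on the plus strand except Mir299b, which lies opposite Mir299a. The lower name nearest to the start was miR-337-5p, 22.1 kb in, and the last was miR-3072-3p, from the hairpin at the distal end. At the distal end, miR-541-3p, miR-409-5p, miR-412-5p and miR-3072-3p come from hairpins inside Mirg, a noncoding host transcript of the locus. Of the 40 hairpins with both strands tested, 21 had log2 fold changes of the same sign on both strands, 17 of them both below 0, and 0 had both strands pass. The 21 include both Mir299a and Mir299b, whose values were equal for the 5p strand (0.10) and nearly equal for the 3p strand (0.59 and 0.58). They are not independent. For Mir409 the 3p strand had a log2 fold change of -0.26 (edgeR adjusted p = 0.428), and for Mir412 it was -0.37 (edgeR adjusted p = 0.502). For Mir337 the 3p strand had 0.02, with the 5p strand lower. Between miR-409-5p and miR-3072-3p lies the hairpin of miR-369, whose 3p strand averaged 1199 ± 6.55 CPM at 6 months and 1435 ± 38.5 CPM at 3 months (SD, n = 3 each) and did not pass (log2 fold change -0.26, edgeR adjusted p = 0.0945).

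**Figure D4:**
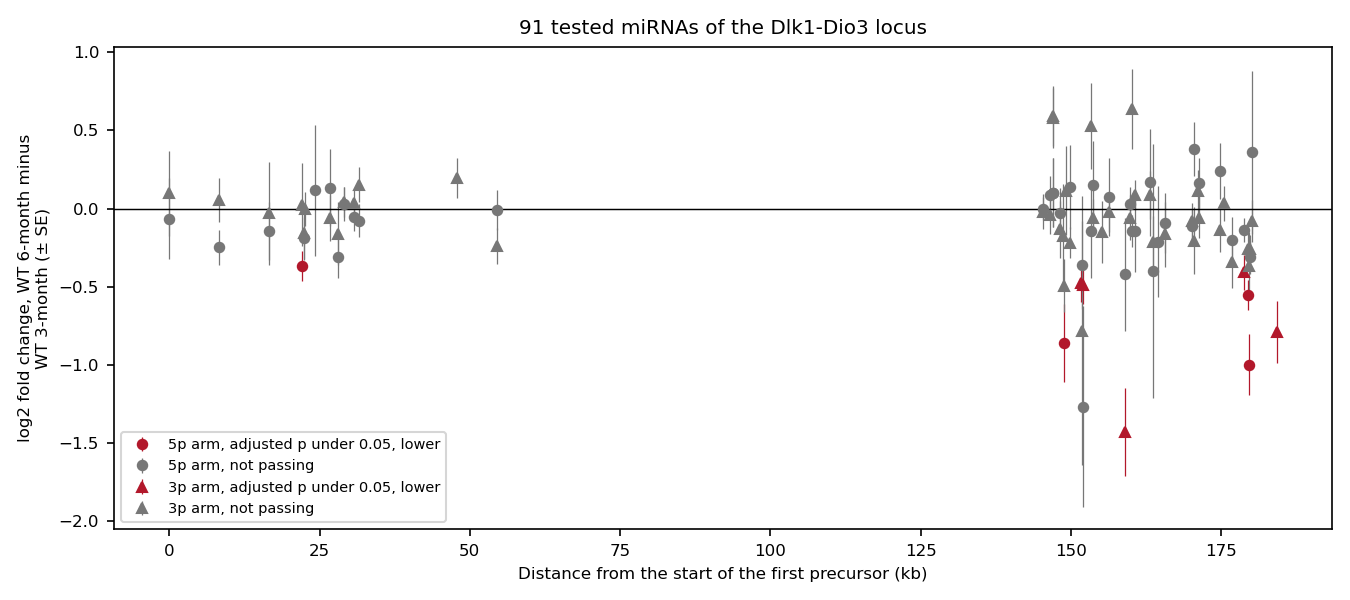
Change at 6 against 3 months in WT cortex (vertical axis, log2 fold change ± SE, WT 6-month minus WT 3-month) of the 91 tested Dlk1-Dio3 names, by the distance of the hairpin from the first tested hairpin of the locus (horizontal axis, kb). Circles are 5p and triangles 3p strands, and red marks the 9 that passed, all below 0 and between 22.1 and 184.2 kb from the start.

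Other groups of miRNAs showed no passing member. None of the 9 tested let-7 names passed (median log2 fold change 0.06), nor did the 8 of the miR-30 family (0.16), the 5 of the miR-181 family (0.03), the 5 of the miR-29 family (0.08), the 8 of the miR-17/92 clusters (-0.03) or the 2 of the p53-responsive miR-34 family (-0.14). The 28 tested names of the Sfmbt2 cluster, a rodent cluster within an intron of Sfmbt2 on chromosome 2, had 21 values below 0 and a median of -0.28, with 0 passing, beside 204 of all 433 names below 0 (47.1%) and a median of 0.03. Names with identical counts (32 of the 433, in 15 sets) were not merged for these counts, so the 28 values may not be independent. Of the 6 tested activity-regulated names 0 passed. Among them, miR-132-3p, which responds to neuronal activity through CREB, averaged 2284 ± 294 CPM at 6 months and 2795 ± 514 CPM at 3 months (SD, n = 3 each), with a log2 fold change of -0.29. A list of 13 tested names linked to brain ageing had a median of 0.02 and 0 passing, and its member miR-29b-3p had a log2 fold change of 0.23 (edgeR adjusted p = 0.274).

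Lists for other tissues that a dissection could include gave no passing name. The median was 0.01 for 4 tested endothelial and smooth muscle names, 0.06 for 4 of choroid plexus and ependyma, 0.22 for 3 of hypothalamus and pituitary, -0.04 for 2 of the caudal Hox loci and 0.29 for 6 of striated muscle and liver, and no epithelial name had enough reads. The summed hypothalamic level lay between 5328 and 10766 CPM at 6 months and between 4254 and 8754 CPM at 3 months, and that of the Hox names between 141 and 650 CPM at 6 months and between 122 and 470 CPM at 3 months. Both spread widely within each age. MiR-7b-3p of the hypothalamic list had 5.57, 2.50 and 2.88 CPM at 6 months, against 4.97, 9.04 and 6.10 CPM at 3 months, and did not pass (log2 fold change -0.97, edgeR adjusted p = 0.0945), while without the first WT 6-month library it was -1.33 (edgeR adjusted p = 0.0216). In the other fits of miR-7b-3p without 1 library, the edgeR adjusted p lay between 0.0526 and 0.285.

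Just outside the threshold, the miR-342 hairpin had 1 library at 6 months apart from the other 2. MiR-342-3p read 794, 2888 and 783 CPM in the WT 6-month libraries, against 4610.2, 3882 and 4567 CPM in the WT 3-month libraries. The second 6-month library lay near the 3-month libraries while the other 2 were far below, and the log2 fold change of -1.55 (SE 0.51) did not pass (edgeR adjusted p = 0.0945). Without that library it was -2.50 (SE 0.52, edgeR adjusted p = 0.00443). This fit is named because that library stood apart, so its p gives no support for the difference. In the other fits of miR-342-3p without 1 library, the edgeR adjusted p lay between 0.0878 and 0.274. MiR-342-5p read 0.464, 8.76 and 2.66 CPM in the WT 6-month libraries, against 10.2, 9.40 and 13.1 CPM in the WT 3-month libraries. The same library was the high one, and the log2 fold change was -1.39 (edgeR adjusted p = 0.102), against -2.56 without it (edgeR adjusted p = 0.00229). In the other fits of miR-342-5p without 1 library, the edgeR adjusted p lay between 0.0878 and 0.313. MiR-299a-3p, a Dlk1-Dio3 member, lay above 0, unlike the passing members of its locus, with 63.1, 51.3 and 53.9 CPM at 6 months, against 32.01, 40.6 and 38.4 CPM at 3 months, and did not pass (log2 fold change 0.59, edgeR adjusted p = 0.0897).

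The same ages in APP/PS1 cortex, in different mice, gave 15 passing names (3.46%), of which 10 were higher (2.31%) and 5 lower (1.15%). This count was unstable, with 36 without the first and 9 without the third APP/PS1 6-month library, 26 by DESeq2, 28 without a filter on low counts and 4 with only the compared groups in the fit. All 24 WT calls had the same sign in APP/PS1, where 52.2% of all names were above 0 and 47.8% below 0. Of the 24, 11 also passed in APP/PS1, which is 45.8% of the WT calls and 73.3% of the 15 APP/PS1 calls. The difference between the genotypes was itself tested, and 0 names passed by edgeR, with 15 at an unadjusted p under 0.05 and a smallest adjusted p of 0.996, and 0 by DESeq2, with 16. Without a filter on low counts, edgeR called 6 names for the difference. MiR-690 and predicted miRNA 7 had differences of 0.97 (adjusted p = 0.0355) and 1.12 (adjusted p = 0.0133), WT minus APP/PS1, in that fit. MiR-125a-5p, miR-346-5p, miR-342-3p and predicted miRNA 293 had -0.93, -0.91, -0.76 and -1.18. All 6 were also among the 433 names, for which the filtered fit did not show a difference between the genotypes.

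Among the higher names, miR-690 had a log2 fold change of 4.85 in WT and 3.85 in APP/PS1, and miR-3470a had 4.47 in WT and 3.73 in APP/PS1, with both passing in both genotypes. MiR-6481 had 10.3 CPM in APP/PS1 at 6 months and 0 counts in all 3 APP/PS1 libraries at 3 months. Among the Dlk1-Dio3 names, miR-409-5p (WT -0.55, APP/PS1 -0.41), miR-412-5p (WT -0.999, APP/PS1 -0.79) and miR-337-5p (WT -0.37, APP/PS1 -0.52) passed in both, and the median over the locus was -0.08 in WT and -0.14 in APP/PS1. MiR-100-5p had a log2 fold change of -0.59 in WT and -0.23 in APP/PS1 (edgeR adjusted p = 0.188), a difference of -0.36 (SE 0.13) that did not pass. MiR-379-5p, another Dlk1-Dio3 name, had the smallest p for the difference. It averaged 1186 ± 87.7 CPM in WT at 6 months and 1186 ± 36.2 CPM in WT at 3 months, with a log2 fold change of 0.00, beside -0.32 in APP/PS1 (edgeR adjusted p = 0.0169). MiR-7013-5p, miR-103-3p and predicted miRNA 293 followed, with differences of 1.37, 0.36 and -1.15 (WT minus APP/PS1), none passing.

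**Figure D5:**
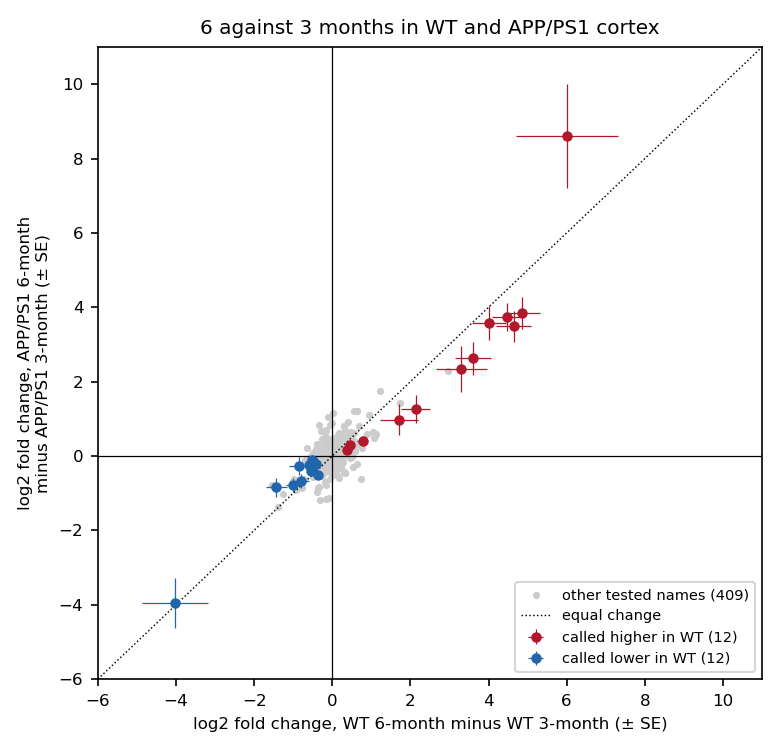
Change at 6 against 3 months in WT cortex (horizontal axis, log2 fold change ± SE) against the change in APP/PS1 cortex (vertical axis, log2 fold change ± SE) for the 433 tested names. The 24 names called in WT lie in the quadrants of equal sign. The uppermost point is miR-6481, whose fitted value in APP/PS1 depends on 0 counts at 3 months.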

How the data were processed

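Small RNA of cortex was sequenced from 24 mice, and the 6 WT libraries of 6 and 3 months make up the comparison. Per the labels' protocols, RNA was extracted with Trizol from flash-frozen tissue and TruSeq small RNA libraries were read on a HiSeq 2500. Per the submitters' processing notes, cutadapt 1.14 and Trimmomatic 0.36 were used. Per the labels' protocols, reads of 17 to 35 bases were kept, reads of quality under 20 were removed, other RNA classes and repeats were filtered with Blast 2.6.0, and names came from miRBase 21.0 and miRDeep2 2.0.0.8. Which tool counted the reads, how reads matching more than 1 name were handled and which genome build was used is not stated in the labels or notes. The authors deposited unnormalised read counts, 1 whole number per mature miRNA and library.

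All 24 libraries were fitted together with edgeR 4.0.16 in R 4.3.3 (TMM scaling, filter by expression with a minimum count of 10 and a minimum total of 15, quasi-likelihood with 8 group means, 16 residual degrees of freedom). Of 433 tested names, 32 fall into 15 sets of identical counts and are not independent. Replicates were more variable than reads drawn at random would be (chi-square divided by its degrees of freedom, 60.5 to 131 in the 2 WT groups), and no 2 libraries were identical. Names left out by the filter held 0.011% to 0.0159% of a library. Sex was not modelled, as the labels give none per library.

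The names described are those that passed without overlap between the groups (up to 12 in each direction), up to 4 passing members per list, the 5 most abundant names and the 5 with the smallest p for the APP/PS1 comparison and for the difference between genotypes. Names just outside the threshold, family members and opposite strands were added after their values were seen. A planned ranking of names by likeness to the leading miRNA was not made. The members and lists were chosen with earlier results of these data known. Positions are from GENCODE M21 (GRCm38) and sequences from RefSeq, matched by name. The scripts were tested on simulated data. Alternatives were DESeq2 1.42.0, other scalings and filters, a fit of the compared groups only, a replicate block and leaving out each library.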

Additional observations from a re-analysis of the deposited data

How the results depend on the processing

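Leaving out each library in turn gave between 22 and 27 WT calls, between 7 and 10 lower Dlk1-Dio3 names, between 9 (without the third APP/PS1 6-month library) and 36 (without the first) APP/PS1 calls, and between 0 and 0 calls for the difference between genotypes. Scaling by library size with no composition factor left 18 WT calls, 11 higher and 7 lower, and 4 lower Dlk1-Dio3 names. A fit of the compared groups only gave 13 WT calls, 4 lower Dlk1-Dio3 names and 4 APP/PS1 calls. Without a filter the counts were 32 for WT, 5 for lower Dlk1-Dio3 names, 28 for APP/PS1 and 6 for the difference. DESeq2 gave 26 APP/PS1 calls. A fit without the 8 passing names above a WT log2 fold change of 2, chosen after seeing the data, left 15 WT calls, 4 higher, since 8 of the 12 were removed, and 11 lower. For the other changes the cause was not tested. With the replicate number as a block there were 23 WT calls, 22 of them shared with the unblocked fit, 14 in APP/PS1 and 0 for the difference. Libraries of the same number in the 2 WT groups had correlations of their deviations of -0.07, -0.14 and 0.36. Those of different numbers lay between -0.22 and 0.28. So few values cannot decide whether a number marks a shared litter, batch or day, and the labels do not say.

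Of the 24 names, 0 reversed in the settings tried, 16 kept their call in all 6 fits without 1 library and 14 in every setting that tested them. MiR-598-3p lost it in all of these settings. MiR-135a-1-3p, miR-323-5p and miR-142a-5p kept the call in 1, 1 and 2 of the 6 fits without 1 library. The unfiltered fit and that of the compared groups only both lost miR-15b-5p, miR-337-5p, miR-494-3p, miR-541-3p, miR-1193-3p, miR-323-5p and miR-142a-5p. The fit with no composition factor lost miR-337-5p, miR-494-3p, miR-541-3p, miR-3072-3p and miR-323-5p, the replicate block miR-135a-1-3p and DESeq2 miR-323-5p. With 3 mice per group and a biological coefficient of variation of 18.6%, names of a few CPM rest on few reads.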

Other observations

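Some names with too few reads to be tested were unevenly spread between the ages in WT. MiR-706 had 11, 7 and 23 counts in the 6-month libraries, against 3, 2 and 3 counts in the 3-month libraries. Predicted miRNA 328 had 5, 6 and 11 counts at 6 months and 0 counts in all 3 libraries at 3 months. MiR-3473b, a relative by name of miR-3473a, had 3, 9 and 7 counts at 6 months and 1 count in each library at 3 months. MiR-183-5p and miR-96-5p, which are cut from the same primary transcript and known from sensory organs, had most of their reads in the third 6-month library. MiR-183-5p had 1, 3 and 27 counts at 6 months and 0, 3 and 0 counts at 3 months, and miR-96-5p had 1, 6 and 17 counts at 6 months and 0, 2 and 0 counts at 3 months. These names were picked after their values were seen and were not tested.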
